A study of Mus musculus with 8 samples.

Results

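The comparison of connexin 46 loss on the 129SvJae background set lenses of α3Cx46 knockout (KO) mice against lenses of wild type (WT) mice of the same strain. Its members were the 4 arrays labelled 129SvJae, 2 of KO and 2 of WT, among the 8 arrays of the study. The other 4 arrays held the same 2 genotypes on the C57BL/6J background. All mice were 10 days old, untreated, and of both sexes, and each group's RNA came from pooled lenses, so an array reports a pool and not an animal. The KO mice carried a targeted disruption of Gja3, the gene of connexin 46, through the germ line. No source used here says whether the 2 arrays of a group were separate pools, so the spread between them may be technical. The question put to these data was whether losing this connexin changes the lens transcripts before any cataract is seen.

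The chip carried 12488 probe sets, of which 66 were controls. A mean signal over 50 in either 129SvJae group was required, which 9247 probe sets met, and 8222 of them have 1 gene symbol, for 6708 genes in all. The signal is a MAS5 intensity on a linear scale. Ratios are log2 of KO over WT, so that 1 is a doubling and a negative value is lower in KO.

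Connexin 46 belongs to the family of proteins that build gap junctions, the channels through which neighboring cells pass ions and small metabolites. Lens fiber cells lose their nuclei and organelles as they mature, have no blood supply, and depend on these junctions to exchange ions, water and nutrients with the cells nearer the surface. Connexin 46 is a connexin of the fibers, whereas the epithelium uses connexin 43. Mice without connexin 46 develop cataract in the nucleus of the lens, and how severe it becomes depends on the strain.

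The 4 arrays had the same trimmed mean signal (250.17 to 250.2), but they did not resemble each other equally. WT replicate 1 correlated with the other 3 arrays at a Spearman rho of 0.815 to 0.823 across probe sets, whereas the other 3 arrays correlated with each other at 0.871 to 0.906. The 5′ to 3′ signal ratio of the β-actin control probe sets, a measure of RNA and labeling quality, was 0.322 and 0.563 in WT and 0.754 and 0.705 in KO. Both WT arrays therefore lay below both KO arrays in this measure, with WT replicate 1 lowest. The C57BL/6J arrays also had WT below KO (0.496 and 0.689 in WT, 0.728 and 0.828 in KO). The same ratio of the Gapdh control was 0.78 and 1.0 in WT and 0.916 and 1.11 in KO, so those groups overlapped. In C57BL/6J the Gapdh ratio was 0.819 and 0.966 in WT and 1.02 and 1.04 in KO. Scan session 1 held replicate 1 of every group, and 129SvJae WT replicate 2 was alone in session 2, with the remaining arrays in session 3. The part of RNA quality and of scan session in the results below was not tested, and ratios without WT replicate 1 are given beside several of them. The defining genes of lens fibers were bright on all 4 arrays, as the label lens requires (Cryaa at 31300 to 68032 and Mip at 11002 to 14703).

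Gja3, the targeted gene, was checked first. Its signal was 1101 and 3383 on the WT arrays and 473 and 445 on the KO arrays. Both KO arrays lay below both WT arrays, and the WT arrays differed from each other by far more than the KO arrays did (2242 ± 1614 in WT and 459 ± 19.6 in KO, mean ± SD, n = 2 each). The log2 ratio was -2.07 (SE 0.42, 95% interval -2.97 to -1.17), and -1.22 and -2.93 in the replicate 1 and replicate 2 arrays. Gja3 had the lowest unadjusted p of all probe sets, 0.000279 in limma, but adjusted over 9247 probe sets it was 1.0. Without WT replicate 1 the ratio was -2.88 with an adjusted p of 0.00823 in limma, and without WT replicate 2 it was -1.26 with an adjusted p of 0.318. In C57BL/6J lenses the signal was 1969 and 3276 in WT and 448 and 520 in KO, a ratio of -2.40, and the interaction of strain and genotype had an unadjusted p of 0.593 in limma. A signal of about the same size remained on all 4 KO arrays, and no source used here says whether the probes lie inside the disrupted stretch.

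Prm1 had the largest upward ratio of all named genes. It encodes protamine 1, which packs the DNA of sperm. Its signal was 387 and 14.5 on the WT arrays and 1583 and 2169 on the KO arrays. The KO arrays were alike and both above the WT arrays, which differed widely from each other. The log2 ratio was 4.63 (SE 1.05, 95% interval 2.34 to 6.91, limma adjusted p = 1.0), 2.03 in the replicate 1 arrays and 7.22 in the replicate 2 arrays. With signals under 50 set to 50, the ratio was 3.74. Leaving out WT replicate 1 gave 7.0 with an adjusted p of 0.00130 in limma, and leaving out WT replicate 2 gave 2.26 with an adjusted p of 0.281. In C57BL/6J lenses Prm1 was at 10.0 and 4.70 in WT and at 1387 and 1341 in KO. The 4 KO arrays of the series thus lay between 1341 and 2169 and the 4 WT arrays between 4.70 and 387, with WT replicate 1 of 129SvJae the only WT array above 50. The probe set is one that Affymetrix marks as able to bind members of a sequence family. According to the study, the construct that disrupted Gja3 carried a polyadenylation sequence of protamine behind its neomycin gene. The study holds this the likely source of the Prm1 signal, which was not tested here.

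Other genes of haploid male germ cells gave no such separation upward. Besides Prm1, 14 were measured, of which 5 had positive ratios, and the median was -0.12. Without overlap 0 of the 14 were higher and 3 lower, where the shares over all genes were 12.7% and 16.9%. Tnp1, which encodes a transition protein of the same stage of sperm development, was at 1316 and 1063 in WT and at 1292 and 653 in KO. Prm3, a neighbor of Prm1 in the genome, was at 157 and 132 in WT and at 269.9 and 115 in KO. In both genes the groups overlapped.

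The bases before the transcription starts of Gja3 and Prm1 are shown because one is the targeted gene and the other had the largest upward ratio. They are the 250 bases before the start in RefSeq's GRCm38.p6, on the minus strand, at chr14:57058031-57058280 and chr16:10796824-10797073. Capitals mark TATTTATAG in Gja3 and TATAA in Prm1, both searched on both strands.
Gja3: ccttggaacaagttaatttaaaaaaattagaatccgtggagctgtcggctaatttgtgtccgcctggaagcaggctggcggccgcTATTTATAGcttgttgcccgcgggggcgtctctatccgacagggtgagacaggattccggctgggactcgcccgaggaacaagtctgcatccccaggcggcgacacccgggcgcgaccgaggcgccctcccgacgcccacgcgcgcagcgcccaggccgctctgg
Prm1: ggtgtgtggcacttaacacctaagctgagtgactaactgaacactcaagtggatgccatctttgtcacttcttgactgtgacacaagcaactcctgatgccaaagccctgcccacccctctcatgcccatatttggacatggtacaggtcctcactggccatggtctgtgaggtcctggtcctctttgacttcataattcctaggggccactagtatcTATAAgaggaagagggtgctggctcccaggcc
The letters TATTTATAG are found in 0.408% and TATAA in 22.8% of the 32851 promoter windows of this length. A different string was set for each gene, so neither match is a test. A match is a description of the sequence and not a known binding site.

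The remaining connexins gave no separation that passed the test. Gja1, the connexin 43 of the epithelium, was at 2101 and 1171 in WT and at 1129 and 1301 in KO, with a log2 ratio of -0.37 (SE 0.29, limma adjusted p = 1.0) that turned to 0.05 without WT replicate 1. Gja5, the connexin 40 of vessels, was at 252 and 169.7 in WT and at 118 and 148 in KO, and its groups did not overlap (log2 ratio -0.64, SE 0.51). Gjb2, Gjb5, Gjb6 and Gjd2 were dim, between 7.70 and 184 on all arrays, and their groups overlapped. Their log2 ratios of -1.21, -0.54, -0.10 and 0.01 had standard errors of 0.56 to 1.28, and each changed sign under at least 1 alternative, Gjb6 also with quantile normalization (0.14).

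**Figure D1:**
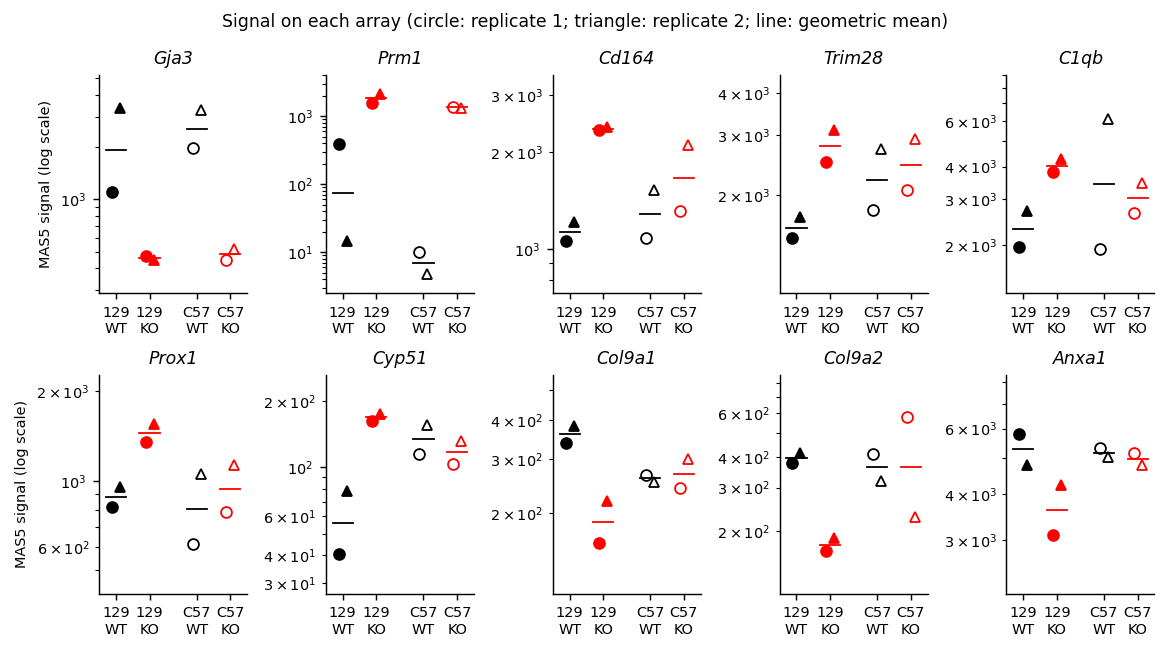
MAS5 signal (log axis) of 10 genes on each array, with WT in black and KO in red, filled symbols for 129SvJae and open symbols for C57BL/6J, circles for replicate 1, triangles for replicate 2 and a line at the geometric mean. Gja3 and Prm1 separate the genotypes in both strains, whereas Col9a1, Cyp51 and Prox1 separate them among the filled symbols and overlap among the open ones.

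Across the transcriptome no gene passed the test. No probe set was called at an adjusted p under 0.05 in limma (0 of 9247, 0%), and at an unadjusted p under 0.05 there were 134 higher in KO (1.45%) and 163 lower (1.76%). The methods' t-test on log2 or on linear signals called none after adjustment either. The study's own thresholds, taken here with limma's unadjusted p (at most 0.01, with at least 1.8-fold between means and 1 mean over 50), were met by 29 probe sets (0.314%), 13 higher and 16 lower in KO. Blocking on the replicate number made it 57, and it was 15 without WT replicate 1, 193 without WT replicate 2 and 54 without KO replicate 1. Both KO arrays lay above both WT arrays in 1145 probe sets (12.4%) and below both in 1649 (17.8%). Leaving out WT replicate 1 gave 3 called probe sets: Gja3, Prm1 and Klk1b8, a kallikrein of a multigene family whose signal was 519 and 7.90 in WT and 1378 and 377 in KO. Leaving out WT replicate 2 gave 2: Serpinh1, the collagen chaperone Hsp47, and Mxd1, a repressor of the Myc network. Serpinh1 was at 175 in WT replicate 1 and at 967 to 1047 on the other 3 arrays, so its groups overlapped once WT replicate 2 was counted.

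Among the 29 probe sets, Cplx1 and Krt36 are given as examples chosen after their values were seen. Cplx1, a regulator of synaptic vesicle release, was at 114 and 139 in WT and at 459 and 438 in KO (log2 ratio 1.83), with a C57BL/6J ratio of -0.73. Krt36, a hair keratin, was at 613 and 363 in WT and at 1047 and 1145 in KO (1.21), with 1.44 in C57BL/6J. Of the 13 higher probe sets 9 had positive ratios in C57BL/6J, and of the 16 lower ones 10 had negative ratios there.

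The spread between arrays of 1 genotype was as large as the difference between genotypes. The log2 ratio of KO over WT had an SD across probe sets of 1.10 in the replicate 1 arrays and 0.88 in the replicate 2 arrays. The ratio of replicate 2 over replicate 1 had an SD of 1.07 within WT and 0.98 within KO. A fold of 1.8 was passed by 2977 probe sets in the replicate 1 arrays and by 2102 in the replicate 2 arrays, against 2918 between the WT arrays and 2686 between the KO arrays. Only 192 probe sets passed it upward and 414 downward in both pairs, and 455 passed it in opposite directions. The ratios of the pairs correlated at 0.07 (Pearson) and 0.03 (Spearman) across the 9247 probe sets, which share the chip and are not independent.

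**Figure D2:**
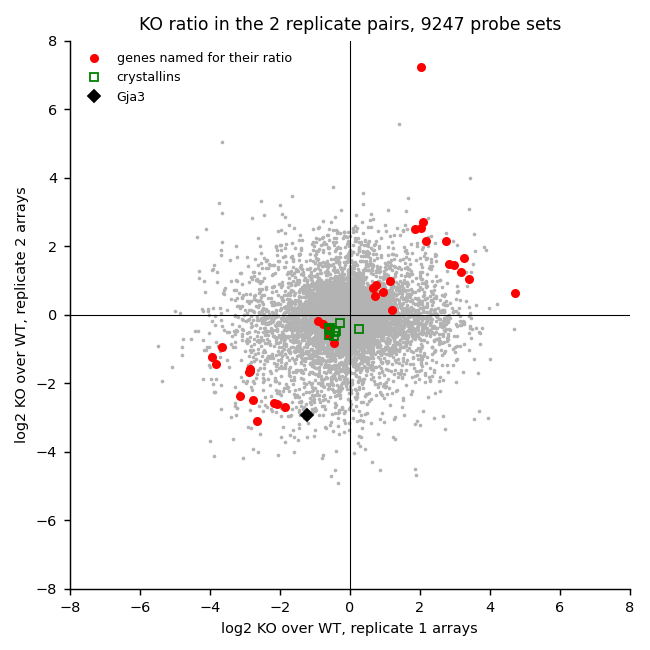
Log2 ratio of KO over WT in the replicate 1 arrays (x axis) and the replicate 2 arrays (y axis) for 9247 probe sets in gray, with the genes named for their ratio in red, the crystallins in green and Gja3 in black. The gray cloud has no slope (r = 0.07), and the red genes lie in the corners because both pairs had to go the same way for them to be chosen.

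How closely a ratio was measured depended on the signal. The 95% interval of a ratio reached a median of 1.20 log2 to either side, a 2.30-fold change. It was 2.0 log2, a 4.0-fold change, for the 3100 probe sets with means under 100, 0.62 (1.54-fold) at 500 to 1000, and 0.43 (1.35-fold) for the 156 probe sets at 5000 and above. These are medians of unadjusted intervals and not limits of the adjusted test. With 2 arrays a group that test left larger ratios uncalled, such as those of Gja3 (-2.07) and Prm1 (4.63). The level also moved the center of the ratios, from a median of -0.25 under 100 to 0.06 at 500 to 5000 and -0.06 at 5000 and above, against -0.05 over all probe sets. Centering the arrays on their medians shifted that overall median to 0.09 and quantile normalization to -0.01, and ratios near 0 are read against these values.

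**Figure D3:**
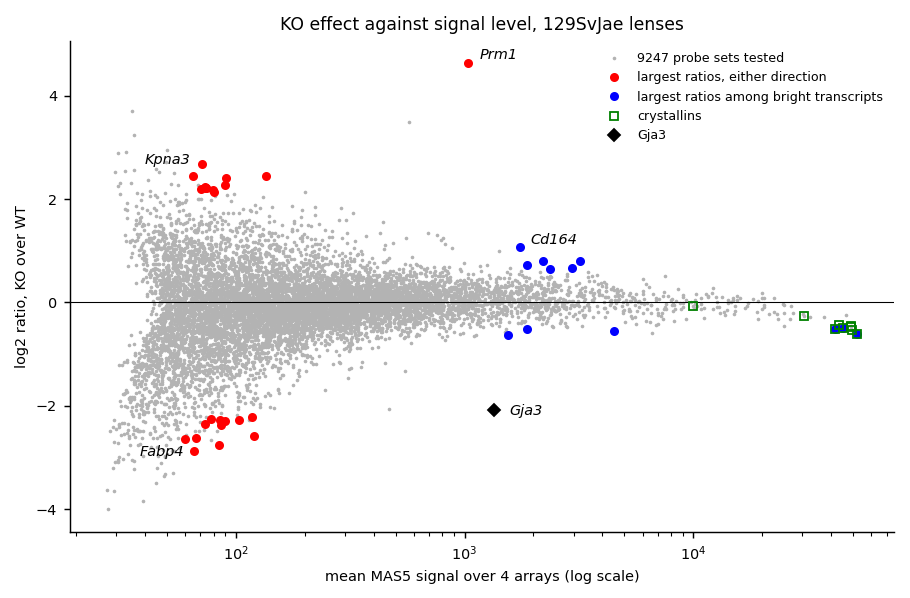
Log2 ratio of KO over WT (y axis) against the mean signal over the 4 arrays (x axis, log scale), one gray point for each of 9247 probe sets. The cloud narrows as the signal grows, Gja3 and Prm1 lie outside it, and the crystallins sit below 0 at the right end.

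Upward ratios were ranked among genes without overlap, with an unadjusted p under 0.05 in limma and a group mean of at least 100. The largest after Prm1 belonged to dim transcripts. They were Kpna3, Olfr157, Pax8, Mcrs1, Commd5, Stx6, Cdh15, Pacs1, Gramd3, Eya1 and Itln1, with log2 ratios of 2.14 to 2.67. Pax8, a paired box transcription factor known from thyroid and kidney, was at 36.1 and 38.3 in WT and at 346 and 119.9 in KO. Eya1, a phosphatase and transcription cofactor of eye and ear development, was at 38.5 and 19.6 in WT and at 173 and 87.8 in KO. A second probe set of Eya1 was at 281 and 471 in WT and at 449 and 399 in KO (ratio 0.22), so the probe sets disagreed. Mcrs1, a nucleolar and spindle protein, was at 31.9 and 26.1 in WT and at 136 and 169.6 in KO. Stx6, a SNARE of the trans-Golgi network, was at 11.7 and 51.5 in WT and at 124 and 106 in KO. Kpna3, an importin that carries proteins into the nucleus, was at 3.70 and 72.0 in WT and at 97.1 and 112 in KO, but its other probe set was at 2682 and 2315 in WT and at 2368 and 2191 in KO (-0.13). Without WT replicate 1 the ratio of Kpna3 was 0.53 and that of Stx6 was 1.16. These genes were chosen by their 129SvJae ratio, so the ratio describes them and is not a test. Their C57BL/6J ratios, which the choice did not use, were positive for 6 and negative for 6 of the 12 (Prm1 included), with a median of -0.06.

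By the same rule, the largest downward ratios were also found at low signals. Fabp4, the fatty acid binding protein of adipocytes and macrophages, was at 124 and 105 in WT and at 20.0 and 12.3 in KO (log2 ratio -2.87). Cldn3, a tight junction claudin, was at 227 and 70.4 in WT and at 25.7 and 13.5 in KO (-2.76). Ephb6, an Eph receptor without kinase activity, was at 254 and 137 in WT and at 35.5 and 45.0 in KO (-2.22). The others were Rprm, a p53 target that arrests the cell cycle, the zinc transporter Slc30a4, the uridine phosphorylase Upp1, Nrsn1, the amino acid transporter Slc7a6, Tmem141, complement factor Cfb, Igll1 and the choline transporter Slc44a1. In these 12 genes the KO arrays were at 51.7 or less and below both WT arrays, and WT replicate 1 was the highest array in each. Leaving that array out, the 12 ratios were -2.74 to -1.23, with Upp1 (-1.69) and Slc44a1 (-1.23) smaller by more than 1.5 times. In C57BL/6J the ratio was negative in 11 of 12 with a median of -0.70, whereas 4563 of all 9247 probe sets were negative there. None of the 12 had an unadjusted p under 0.05 in C57BL/6J, where Fabp4 had the most negative ratio of them (-1.50, from 124 and 40.5 in WT to 29.0 and 21.8 in KO). Of the 24 genes chosen for large ratios, 12 have a second tested probe set: 8 of these 12 had the same sign, 2 separated the groups the same way and 2 the opposite way, among them Slc30a4 (60.0 and 131 in WT, 152 and 200.3 in KO).

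Among transcripts of 1000 or more in both groups, and without overlap, the largest ratios were small, and they are the ones measured most closely. Cd164, a sialomucin of endosomes and the cell surface, was at 1059 and 1208 in WT and at 2336 and 2389 in KO, a log2 ratio of 1.06 (95% interval 0.50 to 1.63). Trim28, the corepressor that silences retroviral elements through zinc finger proteins, was at 1493 and 1720 in WT and at 2499 and 3120 in KO (0.80). Pmp22, a membrane protein of myelin and of epithelial junctions, was at 1278 and 1561 in WT and at 2032 and 2667 in KO (0.72). Both replicate pairs gave similar ratios in these 3 genes (1.14 and 0.98 for Cd164, 0.74 and 0.86 for Trim28, 0.67 and 0.77 for Pmp22). Gnai2, an inhibitory G protein subunit, was at 1774 and 1911 in WT and at 2927 and 2811 in KO (0.64), but another of its probe sets was at 8344 and 5153 in WT and at 6520 and 6123 in KO (-0.05). Maged1 was at 1718 and 2925 in WT and at 3944 and 3218 in KO (0.67), and its ratio was 0.28 without WT replicate 1. C1qb, a chain of complement C1q made by macrophages, was at 1963 and 2695 in WT and at 3800 and 4274 in KO (0.81).

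In C57BL/6J the ratios of these 6 genes were 0.38 for Cd164, 0.15 for Trim28, 0.08 for Pmp22, -0.28 for Gnai2, -0.13 for Maged1 and -0.18 for C1qb. Of these, 3 were positive. Cd164 had the largest of them, at 1079 and 1521 in WT and 1315 and 2106 in KO, where the groups overlapped. The interaction of strain and genotype had an unadjusted p of 0.0373 for Gnai2 and of 0.0513 to 0.102 for the other 5 in limma, and an adjusted p of 1.0 for all 6. No probe set in the whole table was called for the interaction, and 197 had an unadjusted p under 0.05. Across all 9247 probe sets the ratios of the strains correlated at 0.06 (Pearson) and 0.04 (Spearman), and 51.7% had the same sign.

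Among bright transcripts of 1 symbol whose groups did not overlap, the largest downward ratios were those of Psmd11, Crygd, Anxa1, Ccng1, Cryba1 and Crygc. Without WT replicate 1 they were -0.48 to -0.23, with Crygd at -0.35, Cryba1 at -0.23 and Crygc at -0.26. Anxa1, a calcium and phospholipid binding annexin, was at 5806 and 4798 in WT and at 3103 and 4221 in KO (log2 ratio -0.54). A second probe set of it was at 2682 and 3033 in WT and at 1570 and 3261 in KO, where the groups overlapped. Ccng1, cyclin G1, was at 2421 and 2007 in WT and at 1429 and 1649 in KO (-0.52). Psmd11, a subunit of the proteasome cap, was at 2077 and 1671 in WT and at 1527 and 942 in KO (-0.64), and its 2 dimmer probe sets had ratios of opposite sign. The C57BL/6J ratios of Anxa1, Ccng1 and Psmd11 were -0.06, 0.04 and -0.01.

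Crystallins are the soluble proteins that fill the fiber cells and give the lens its refractive power, and α-crystallins also act as chaperones. All 9 crystallin genes measured had negative log2 ratios on the signals as deposited, from -0.60 for Crygd to -0.07 for Cryab, but with quantile normalization Crygc, Crybb2 and Crygs were at 0.00, 0.05 and 0.01, and with arrays centered on the median Cryab was at 0.07. None passed the test, and by the brightest probe set of each gene the smallest unadjusted p in limma was 0.0881, for Crygc. Other probe sets of Crybb2 and Cryge had positive ratios (0.47 and 0.38) and overlapping groups. A further one of Cryge was lower without overlap (-0.72, limma unadjusted p = 0.0271). The remaining ones, of Crygb, Crygd and Cryge, had negative ratios and overlapping groups. Crygd was at 73510 and 51570 in WT and at 48488 and 33988 in KO. Cryaa was at 68032 and 48036 in WT and at 49552 and 31300 in KO. In both, WT replicate 1 was the highest array, KO replicate 2 the lowest, and the middle arrays were close. Crygb, Crygc, Cryge, Crygs, Cryba1 and Crybb2 had the same highest and lowest arrays, and Cryab, at 8828 and 11761 in WT and 10598 and 8852 in KO, did not.

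Other bright transcripts are given beside the crystallins. The 9 crystallin probe sets with means of 20000 or more had a median log2 ratio of -0.48, and all 9 were negative. The other 20 probe sets at that level had a median of -0.21, with 18 negative, and the 125 at 5000 to 20000 had -0.02. Between arrays of the same genotype, the median of replicate 2 over replicate 1 for the 9 crystallin probe sets was -0.50 within WT and -0.46 within KO. It was -0.22 and -0.16 for the other 20, and 0.03 and 0.04 for the 125. The highest signal of any probe set was 73510 and 51570 in WT and 50630 and 34977 in KO. With quantile normalization, which gives every array the same distribution, the median of the 9 was -0.06 and 6 of them were negative. The median in C57BL/6J was -0.24.

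**Figure D4:**
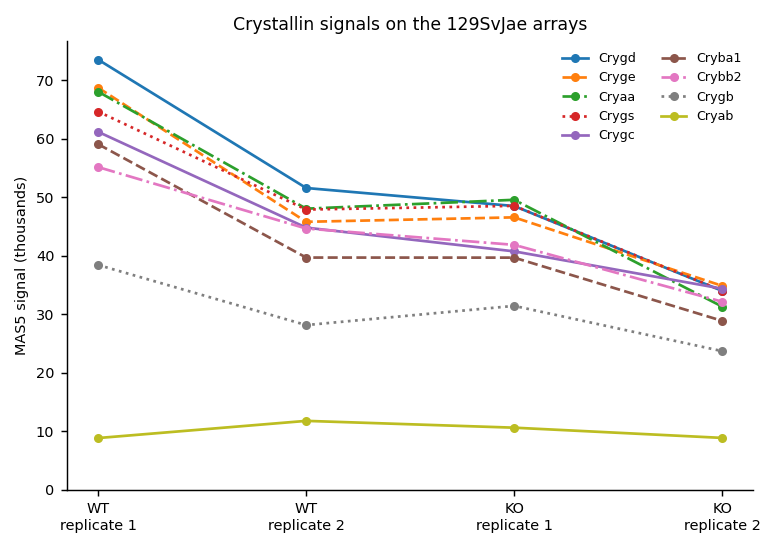
MAS5 signal divided by 1000 (linear axis from 0) of the 9 crystallin genes measured, one line a gene, on the WT and KO arrays of 129SvJae. Every crystallin but Cryab is highest on WT replicate 1 and lowest on KO replicate 2, with WT replicate 2 and KO replicate 1 close to each other.

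Because the crystallins kept nearly the same order of arrays, the bases next to their starts are shown. They are the 70 bases before each start in GRCm38.p6, with TATATAG or its reverse complement in capitals.
Cryaa, chr17:31677861-31677930, plus strand: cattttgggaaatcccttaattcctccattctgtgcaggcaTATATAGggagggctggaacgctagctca
Crygb, chr1:65082291-65082360, minus strand: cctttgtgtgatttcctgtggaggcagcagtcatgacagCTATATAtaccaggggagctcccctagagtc
Crygc, chr1:65073533-65073602, minus strand: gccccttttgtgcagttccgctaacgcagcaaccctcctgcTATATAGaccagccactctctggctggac
Crygd, chr1:65063441-65063510, minus strand: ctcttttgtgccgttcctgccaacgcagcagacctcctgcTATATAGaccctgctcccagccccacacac
Cryge, chr1:65051164-65051233, minus strand: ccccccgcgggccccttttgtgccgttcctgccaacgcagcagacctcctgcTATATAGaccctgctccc
Of the 8 crystallins with an entry in the table, 5 hold this motif within 70 bases of the start, against 0.639% of all 32851 windows of that length, and Cryba1, Crybb2 and Crygs do not. The motif was chosen after the sequences had been read, so its share among the crystallins is not a test. Crygd and Cryge hold the same stretch around it, so the 5 are not separate matches. Cryba1, Crybb2 and Crygs kept the same highest and lowest arrays without it.

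The genes that build the fiber cell beyond crystallins went both ways. Of 13 measured, 6 had positive ratios, and the median was -0.04, against -0.04 over all genes. Without overlap, 3 were higher and 1 lower (23.1% and 7.69%, against 12.7% and 16.9% over all genes). Bfsp1, the beaded filament protein filensin, was at 22030 and 29142 in WT and at 24660 and 24008 in KO. Mip, the water channel aquaporin 0, was at 12019 and 14703 in WT and at 14248 and 11002 in KO. In both the groups overlapped, with ratios of -0.06 for Bfsp1 and -0.09 for Mip that became 0.08 and 0.06 with arrays centered on the median. Nrcam, an adhesion molecule of the immunoglobulin family, was at 1200.3 and 1208 in WT and at 1664 and 1665 in KO, a log2 ratio of 0.47 (limma unadjusted p = 0.0523). Its arrays were nearly equal within each genotype, and its C57BL/6J ratio was 0.38.

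Among 17 transcription factors of the lens, 10 had positive ratios and the median was 0.06. Prox1, the homeobox factor that drives fiber elongation and crystallin expression, was at 817 and 949.8 in WT and at 1346 and 1547 in KO. The groups were apart in both pairs (log2 ratios 0.72 and 0.70), with a ratio of 0.71 (95% interval 0.08 to 1.34, limma adjusted p = 1.0) and one of 0.22 in C57BL/6J. Gata3 was at 227 and 222 in WT and at 123 and 168 in KO (-0.64). Tfap2a, a factor of the lens epithelium, was at 206 and 171 in WT and at 141 and 91.8 in KO (-0.73). A second probe set of Tfap2a had a ratio of -0.06 and overlapping groups.

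The lens capsule and extracellular matrix list had 39 measured genes, 4 of them higher and 8 lower in KO without overlap (10.3% and 20.5%, against 12.7% and 16.9% over all genes). Col9a1 and Col9a2, chains of type IX collagen, a collagen that associates with fibrils in cartilage and vitreous, were both among the 8. Col9a1 was at 337 and 384 in WT and at 160.2 and 219 in KO, a log2 ratio of -0.94 (95% interval -1.71 to -0.17). Col9a2 was at 376 and 413 in WT and at 166 and 187 in KO, a ratio of -1.16 (-2.07 to -0.25). Each had a similar ratio in both replicate pairs, and in C57BL/6J the ratios were 0.05 and 0.01. The interaction with strain had an unadjusted p of 0.0712 for both in limma and an adjusted p of 1.0. Mmp14, a membrane-bound metalloproteinase, was at 427 and 341 in WT and at 229 and 231 in KO, and Col6a3 at 372 and 458 in WT and at 548 and 524 in KO. Serpinh1, given above, had a ratio of 1.24 that became -0.05 without WT replicate 1.

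In the list of FGF, BMP, TGF-β and Wnt signaling, 39 genes were measured and the median was 0.03. Wnt7b, a Wnt ligand, was at 191 and 483 in WT and at 1037 and 501 in KO (log2 ratio 1.25), with WT replicate 1 low and KO replicate 1 high, and its ratio was 0.58 without WT replicate 1. Sfrp1, a secreted Wnt inhibitor, was at 2136 and 1783 in WT and at 2583 and 2833 in KO (log2 ratio 0.47). Notch2, a Notch receptor, was at 272 and 208 in WT and at 419 and 410.3 in KO (0.80), and a second, dim probe set of it had overlapping groups. Etv4, a target of FGF signaling, was at 668 and 591 in WT and at 445 and 422 in KO (-0.54). The C57BL/6J ratios of Sfrp1, Notch2 and Etv4 were 0.09, -0.02 and -0.05.

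Cholesterol synthesis genes separated both ways, and 3 of the higher members, which had the smallest p of the list, are given here. Cyp51, the lanosterol demethylase, was at 40.3 and 78.0 in WT and at 163 and 174 in KO (log2 ratio 1.59). Lss, lanosterol synthase, was at 47.9 and 33.1 in WT and at 110 and 114 in KO (1.49). Fdft1, squalene synthase, was at 554 and 1009 in WT and at 1118 and 1164 in KO (0.61). These 3 act close together in the pathway, but Sqle, the enzyme between Fdft1 and Lss, was at 475 and 710 in WT and at 557 and 613 in KO, and Hmgcs1, Fdps and Idi1 overlapped as well. Of 19 genes measured, 4 were higher and 4 lower without overlap (21.1% each, against 12.7% and 16.9% over all genes). The median was 0.07, and the ratios of the list ran from -1.22 to 1.59. In C57BL/6J the ratios of Cyp51, Lss and Fdft1 were -0.20, 0.01 and -0.26.

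Fibers clear their organelles, and autophagy genes were measured with those of apoptosis. Map1lc3a, an LC3 protein of the autophagosome membrane, was at 50.9 and 156 in WT and at 277 and 285 in KO (log2 ratio 1.66, and 0.85 without WT replicate 1). Gabarap, of the same protein family, was at 2031 and 1830 in WT and at 3053 and 2494 in KO (0.52). The groups of both did not overlap, their C57BL/6J ratios were -0.83 and -0.15, and the interaction had unadjusted p of 0.00901 and 0.0447 in limma with adjusted p of 1.0. Over the 23 genes of the list the median was -0.08, with 2 higher and 3 lower without overlap (8.70% and 13.0%, against 12.7% and 16.9% over all genes).

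Proteolysis was of interest because crystallins are cleaved in cataract. Of the 8 calpain genes measured, 0 separated in either direction, where the shares over all genes were 12.7% higher and 16.9% lower. Capn3, a calpain of muscle and lens, was at 4027 and 2296 in WT and at 2607 and 3418 in KO. Calpastatin (Cast), their inhibitor, was at 146 and 61.0 in WT and at 30.7 and 46.4 in KO. Of 25 cathepsin and lysosome genes 3 were higher and 4 lower without overlap, against the same 12.7% and 16.9% over all genes. Among the 3, Ctsd, the lysosomal protease cathepsin D, was at 2029 and 2629 in WT and at 2953 and 2888 in KO (log2 ratio 0.34), with a C57BL/6J ratio of -0.19. Among the 4 were the cathepsins Ctsk, Ctss and Ctsc, with log2 ratios of -1.49, -1.19 and -0.91. Ctsk was at 170 and 107 in WT and at 32.1 and 72.1 in KO. The C57BL/6J ratios of Ctsk, Ctss and Ctsc were -1.19, -0.43 and 1.05. Of 41 ubiquitin and proteasome genes 6 were higher and 2 lower without overlap (14.6% and 4.88%, against 12.7% and 16.9% over all genes). Among the 6, Psma4, a core subunit, was at 761 and 1020.0 in WT and at 1200.3 and 1378 in KO, and Psmc5, an ATPase of the cap, was at 1236 and 1403 in WT and at 1764 and 1870 in KO. Their C57BL/6J ratios were 0.01 and -0.08.

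The list of calcium transport and signaling held 28 measured genes. Of these, 19 had negative ratios, and 10 were lower in KO without overlap (35.7%, against 16.9% of all genes) with 1 higher. Among the 10 were the pumps of the endoplasmic reticulum Atp2a1 (183 and 80.2 in WT, 34.3 and 53.1 in KO), Atp2a2 and Atp2a3. Most of these members were dim: the median level of the list was 116, and probe sets between 100 and 200 had a median ratio of -0.11 on the whole. The median of the list was -0.21, against -0.05 over all probe sets. It was -0.17 against -0.01 with quantile normalization and -0.07 against 0.09 with median centering. The brighter members among the 10 were Anxa1, given above, Canx, the chaperone calnexin, at 521 and 525 in WT and 365 and 409.7 in KO, and S100a4 at 3647 and 4363 in WT and 3102 and 3458 in KO. The list's median in C57BL/6J was 0.03.

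Among 37 antioxidant genes 8 were higher and 5 lower without overlap (21.6% and 13.5%, against 12.7% and 16.9% over all genes), and the median was 0.09. Gss, glutathione synthetase, was at 2739 and 3221 in WT and at 3761 and 4711 in KO (log2 ratio 0.50, 95% interval 0.08 to 0.93), whereas its dimmer probe set had overlapping groups. Sod1, the cytosolic superoxide dismutase, was at 2459 and 2384 in WT and at 2868 and 2872 in KO, and Txn1, thioredoxin, at 2265 and 2195 in WT and 2732 and 2833 in KO. Sod2, the mitochondrial superoxide dismutase, was lower, at 387 and 333 in WT and at 221 and 231 in KO. The C57BL/6J ratios of Gss, Sod1, Txn1 and Sod2 were 0.23, -0.18, 0.07 and -0.11.

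Apart from the marker lists, the other lists gave medians between -0.08 and 0.14, except for the interferon-stimulated genes. Those had a median of -0.32 over 13 measured members, of which 1 was higher and 1 lower without overlap (7.69% each, against 12.7% and 16.9% over all genes). Junb, an immediate early transcription factor, was at 266 and 119 in WT and at 67.9 and 34.0 in KO (log2 ratio -1.89), next to 4 higher and 4 lower of 19 in its list (21.1% each, against the same 12.7% and 16.9%). A second probe set of Junb had a ratio of -0.10 and overlapping groups. Pdia4, a disulfide isomerase of the endoplasmic reticulum, was at 508 and 456 in WT and at 319 and 129 in KO (-1.25). Atp5g1, a subunit of the mitochondrial ATP synthase, was at 263 and 176 in WT and at 104 and 70.7 in KO (-1.33) with a C57BL/6J ratio of -1.14, whereas its list of 36 oxidative phosphorylation genes had a median of -0.06. A second, dimmer probe set of Atp5g1 had overlapping groups, with ratios of -0.33 in 129SvJae and 0.55 in C57BL/6J. Cct7, a chaperonin subunit, was at 1927 and 2693 in WT and at 2813 and 3748 in KO (0.51). Jup, plakoglobin of the adherens junction, was at 41.3 and 32.7 in WT and at 206 and 100.3 in KO (1.97) with 0.94 in C57BL/6J, and its list of junction and scaffold proteins had a median of 0.14 in 129SvJae and 0.13 in C57BL/6J.

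**Figure D5:**
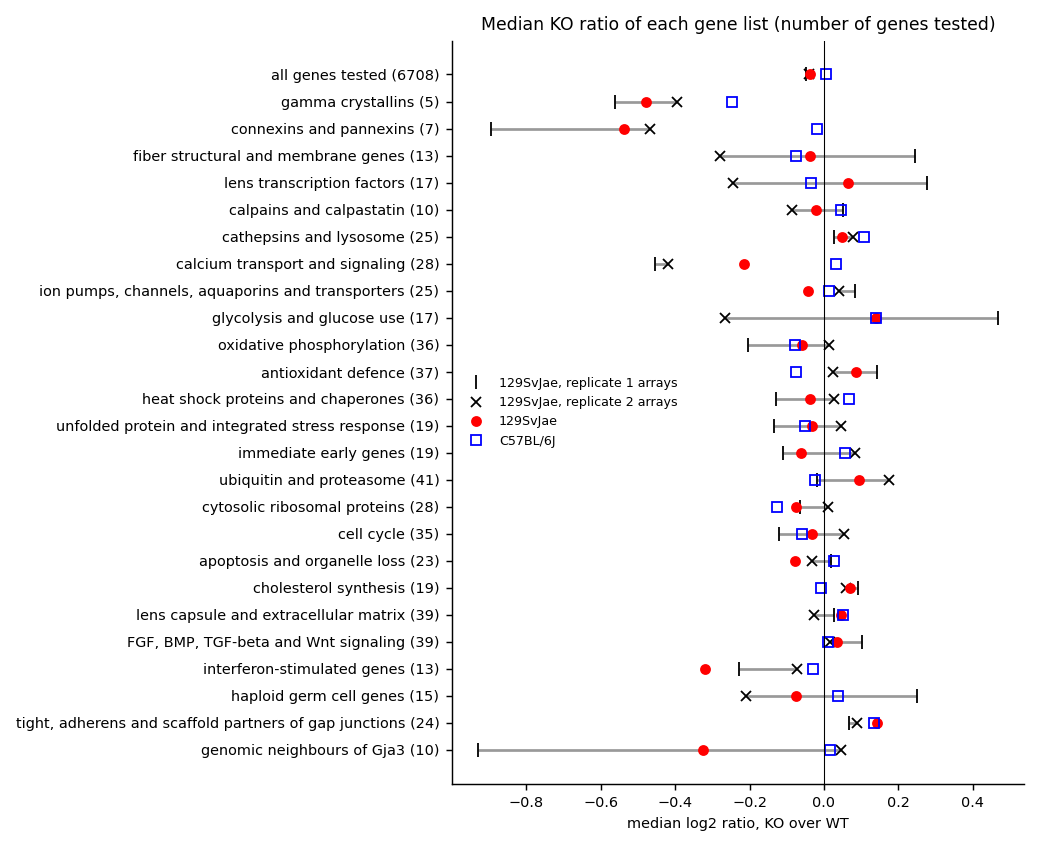
Median log2 ratio of KO over WT (x axis) of all genes and of each gene list with at least 3 genes measured (number in brackets), marker lists not drawn, as red circles for 129SvJae, black bars and crosses for its replicate 1 and replicate 2 arrays, and blue squares for C57BL/6J. The medians of the other lists drawn lie between -0.08 and 0.14, whereas those of the gamma crystallins, connexins, calcium genes, interferon-stimulated genes and Gja3 neighbors are lower.

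Markers of other tissues of the eye were measured to see what else the pools held. The 6 photoreceptor markers measured summed to 1162 and 559 in WT and to 648 and 337 in KO, with Sag, the rod arrestin, at 476 in WT replicate 1 and between 30.4 and 94.6 on the other arrays. Of these 6, 5 had negative ratios, and Nrl, the rod transcription factor, was at 179 and 147 in WT and at 82.1 and 25.2 in KO. The 5 markers of pigment epithelium and melanocytes summed to 464 and 337 in WT and 306 and 319 in KO. The 4 macrophage markers summed to 2610.0 and 3301 in WT and to 4556 and 4735 in KO, and most of each sum was C1qb. Positive ratios were found in 2 of the 4, C1qb, given above, and Cd68. Cd68 was at 41.6 and 30.7 in WT and at 81.7 and 50.8 in KO. Csf1r (337 and 269 in WT, 405 and 163 in KO) and Cd14 had negative ratios and overlapping groups. Lyz2 and C1qa were not above the level. The 4 markers of cornea and conjunctiva had a median ratio of -0.75, the 4 of vascular endothelium -0.45, the 2 of erythrocytes -0.49 and the 4 of iris and ciliary muscle 0.27. Of the lens epithelium markers 3 of 8 were positive, with all groups overlapping, and their sums were 17780 and 12510 in WT and 12910 and 12510 in KO. Fewer cells of a type and less RNA per cell cannot be told apart in such pools, and the part of these tissues in the ratios was not tested.

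Genes near Gja3 on the chromosome are of interest because a targeted allele carries flanking sequence of the line in which it was made. Of the 30 nearest protein-coding genes, 10 were measured. Negative ratios were found in 3605 of all 6708 genes and in 8 of these 10. Their median was -0.33, which was -0.93 in the replicate 1 arrays and 0.05 in the replicate 2 arrays, and 0.10 without WT replicate 1. Gzmg, a granzyme, was at 147 and 95.5 in WT and at 55.3 and 44.6 in KO. Cryl1, which encodes λ-crystallin, was at 513 and 304 in WT and at 257 and 296 in KO, while Ift88, a ciliary transport protein, was at 1053 and 1479 in WT and at 1403 and 923 in KO with overlapping groups. The neighbors had a median of 0.02 in C57BL/6J.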

How the data were processed

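Lens RNA of mice 10 days old was hybridized by the authors to Affymetrix Mu74Av2 chips, 2 arrays a group, and 1 intensity per probe set and array was deposited. This intensity is the MAS5 signal, as the submitters' notes name the tool without giving a version, and the authors scaled it to a mean of 250. Groups and replicate numbers came from the labels. Detection calls and probe-level data were not used here. The number of arrays and the signal over background limit the precision.

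The signals were used as deposited, with the 1 value at or under 0 set to 1 before log2. Of 12488 probe sets, 66 controls were left out. A probe set was tested where the mean of 129SvJae WT or of 129SvJae KO was over 50. One limma 3.58.1 fit (R 4.3.3) over all 8 arrays held 4 group means and a trend in the variance prior, with 4 residual and 8.52 prior degrees of freedom. Adjusted p are Benjamini-Hochberg over all 9247 probe sets, called under 0.05. Standard errors and 95% intervals are from this fit. It was tested on simulated data.

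Of 12422 probe sets that are not controls, 10833 have 1 symbol, 396 several and 1193 none in the annotation used, with symbols brought up to date by the RefSeq table (GRCm38.p6). A gene is given by the probe set with the highest mean over the 4 arrays, except those chosen for their ratio. Named genes are Gja3, Prm1 and the connexins, the 12 largest ratios each way (groups without overlap, unadjusted p under 0.05, a mean of at least 100 in 1 group), the 6 largest each way with means of at least 1000, up to 3 genes of each list with the smallest p, and the crystallins and fiber genes. Other list members are named as examples chosen after their values were seen. The members and lists were chosen with earlier results of these data known.

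Arrays were paired by replicate number for the pair ratios only. The main fit held no term for the replicate number, and a block on it was one of the alternatives. For each of the 6 group pairs, same-numbered arrays deviated from their groups together (r across probe sets 0.123 to 0.206), and the numbers follow fluidics protocol in the run records and, but for 1 array each, chip lot and scan session. Figures were drawn with matplotlib 3.10.9.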

Additional observations from a re-analysis of the deposited data

Results flagged for a closer look

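Some of the named genes separated the genotypes in opposite directions in the strains, with both KO arrays on one side of both WT arrays in each. The difference of the log2 ratios, 129SvJae minus C57BL/6J, was 3.91 for Stx6, 2.49 for Map1lc3a, 1.04 for Slc4a2 (an anion exchanger), 0.87 for Fdft1 and 0.53 for Ctsd, which were higher in KO of 129SvJae. It was -4.76 for Tyr (tyrosinase of pigment cells) and -0.84 for Gata3, which were lower in KO of 129SvJae. In C57BL/6J the signal of Stx6 was 157 and 168 in WT and 25.3 and 101 in KO, and that of Tyr 12.8 and 4.80 in WT and 40.8 and 41.9 in KO. The interaction had an adjusted p of 1.0 for all 7 in limma and unadjusted p from 0.00858 (Stx6) to 0.188 (Gata3). These genes were chosen for their separation, so the unadjusted p describe them and are not a test. Over all 9247 probe sets, 346 separated in opposite directions (3.74%) and 436 in the same direction (4.72%), so opposite separation was common on these arrays.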

How the results depend on the processing

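The count of called probe sets (0) was 0 in 18 of 21 alternatives, with the replicate block included. It was 1 with scan session as a block, a fit in which WT replicate 2 has its session to itself, and 0 to 3 with an array left out. The count by the thresholds of the study (29) was 47 with no level filter, 97 with no variance trend, 57 with the replicate block, 79 with scan session as a block and 15 to 193 with an array left out. The interaction count was 0 to 1 with an array left out. Gja3 kept a negative ratio in all 21 alternatives and passed the threshold only without WT replicate 1 (-2.88), its ratios with an array left out running from -2.88 to -1.26. The causes were not tested.

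Signs turned among genes with ratios near 0 or wide errors. With quantile normalization they were Crygc 0.00, Gjb6 0.14, Crybb2 0.05, Crygs 0.01, Bfsp1 0.09 and Caprin2 0.04. With arrays centered on the median they were Gjb6 0.05, Cryab 0.07, Bfsp1 0.08, Mip 0.06, Sptbn1 0.08 and Caprin2 0.11. With a floor of 50 they were Gjb6 0.14 and Vim 0.01, and with scan session as a block Cryab 0.13, Bfsp1 0.15 and Mip 0.09. With an array left out the ratios ran from -0.79 to 0.05 for Gja1, -2.58 to 0.15 for Gjb2, -1.20 to 0.13 for Gjb5, -1.40 to 1.20 for Gjb6, -0.46 to 0.48 for Gjd2, -0.28 to 0.13 for Cryab, -0.26 to 0.14 for Bfsp1, -0.27 to 0.10 for Mip, -1.27 to 0.74 for Vim, -0.21 to 0.09 for Sptbn1, -0.22 to 0.38 for Hmox1, -0.06 to 0.39 for Dkk3, -0.26 to 0.18 for Caprin2 and -0.14 to 2.0 for Epha2.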
